A study of Mus musculus with 4 samples.

Results

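The 10 circadian clock genes Nr1d1, Nr1d2, Arntl, Clock, Per1, Per2, Per3, Cry1, Dbp and Tef were followed in mouse liver RNA through every array probe whose platform gene symbol is one of them. These were 18 of the 25697 probes, and 10 of the 16593 genes with a symbol. The RNA came from mice that lack ROCK1, a kinase of the actomyosin cytoskeleton, in the liver only (KO liver), and from control mice, which a label also calls WT. Each group was read on 2 Illumina bead arrays of 1 colour. All mice ate normal chow ad libitum for 16 weeks and were kept under 14 h of light and 10 h of dark. Strain, sex, age, the Cre driver, the deleted part of the gene, any allele carried by the controls, and the hour at which livers were collected are not given in the sources used here. Since no label tells whether each array had its own animal, p-values cover the spread between arrays alone, which may be technical. Precision is limited by their small number.

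The circadian clock is a feedback loop of transcription that runs with a period of about a day in nearly every cell. CLOCK and BMAL1, the product of Arntl, bind together to E-boxes and switch on the Period and Cryptochrome genes, whose proteins then hold CLOCK and BMAL1 back. A second loop runs through REV-ERB alpha and beta, the products of Nr1d1 and Nr1d2, which repress Arntl. The PAR bZIP factors DBP and TEF carry the rhythm on to output genes through D-boxes, and in liver these outputs include genes of lipid, bile acid and drug metabolism. In mouse liver the transcripts of Nr1d1 and Dbp are known to peak in the light phase and that of Arntl near the turn from dark to light. The part of the collection hour in the values below was not tested.

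Promoter windows of 9 of the 10 genes were found by symbol in the RefSeq table of build GRCm38.p6, each with 250 bases before and 50 bases after a transcript start. Per2 had no entry. The windows below are shown because they hold clock elements of a gene that rose (Nr1d1), of the gene that REV-ERB alpha represses (Arntl) and of a PAR bZIP gene with a wide spread in control liver (Tef). Capitals mark matches to the elements searched, each line reads 5′ to 3′ on the strand of the gene, and the coordinates are those of build GRCm38.p6.
Nr1d1, chr11:98775328-98775627, minus strand: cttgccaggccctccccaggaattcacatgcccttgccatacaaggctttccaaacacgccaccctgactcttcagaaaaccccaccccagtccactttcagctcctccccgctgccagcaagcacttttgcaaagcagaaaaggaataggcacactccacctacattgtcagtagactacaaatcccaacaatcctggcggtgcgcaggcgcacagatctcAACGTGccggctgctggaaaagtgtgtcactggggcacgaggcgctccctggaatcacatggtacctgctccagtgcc
Arntl, chr7:113207261-113207560, plus strand: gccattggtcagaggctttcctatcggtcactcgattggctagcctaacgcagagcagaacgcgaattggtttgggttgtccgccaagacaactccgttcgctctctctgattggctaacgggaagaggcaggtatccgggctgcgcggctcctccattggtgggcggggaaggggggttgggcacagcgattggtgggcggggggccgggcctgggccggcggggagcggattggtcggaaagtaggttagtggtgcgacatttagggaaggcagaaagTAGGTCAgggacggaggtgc
Tef, chr15:81802423-81802722, plus strand: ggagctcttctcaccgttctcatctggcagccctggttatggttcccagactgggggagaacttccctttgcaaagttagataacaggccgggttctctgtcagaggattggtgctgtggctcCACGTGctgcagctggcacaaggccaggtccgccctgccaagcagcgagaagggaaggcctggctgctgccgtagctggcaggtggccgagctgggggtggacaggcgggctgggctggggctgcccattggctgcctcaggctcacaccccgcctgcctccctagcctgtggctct

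The elements searched, on both strands, were the E-box CACGTG, its variant CACGTT, the D-boxes TTATGTAA and TTACGTAA, the REV-ERB/ROR element TAGGTCA and the cAMP element TGACGTCA. No matches overlapped in the windows shown. In the Nr1d1 window the variant E-box lay on the opposite strand with its first base 28 bases before the start, and 4.68% of all 32851 windows held that string. In the Arntl window the REV-ERB/ROR element lay on the gene's strand from base 31 after the start, a string found in 2.61% of all windows. The window of the other Arntl start held none of the strings searched. The Tef window held an E-box from 127 bases before the start, and the window of its other start held one from 138 bases before, where 7.15% of all windows held an E-box. E-boxes also stood 166 bases before a Per1 start and 60 bases before the Cry1 start, while the window of the other Per1 start held no match. The Cry1 window also held the variant E-box on the opposite strand, 79 bases before the start. The Per3 window held TTATGTAA at 205 and at 158 bases before the start, a string in 0.938% of windows. The windows of Nr1d2, Clock and Dbp held none of these strings. These are matches of letters in short windows and show no binding.

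Each array value below is a normalised log2(intensity + 16), with background left in, so that differences of dim probes are smaller than those of the transcripts. A gene is read by its brightest probe unless another is named. A probe counts as above background over a log2 value of 7.86. Of the 10 clock genes, 7 passed that limit on all 4 arrays. Per3 and Cry1 passed it on no array, and Per1 on 1 KO array only. KO arrays were brighter before normalisation, with median intensities of 203 and 206 in KO liver and 145 and 137 in control liver. Across probes, which are not independent replicates, arrays of 1 group correlated at 0.991 after normalisation (Pearson), and arrays of different groups at 0.975 to 0.976. Rock1, the targeted gene, read 8.06 and 7.91 in KO liver and 8.51 and 8.51 in control liver, a difference of -0.53 (limma adjusted p = 0.0181); a probe outside the deleted part, which is not given, would not check the deletion.

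Of the 10 clock genes, Nr1d1 and Per2 rose in ROCK1 KO liver, none fell, and 8 were not called by limma at an adjusted p under 0.05. Across all genes read by their brightest probe, 8.84% were called, with 4.2% called higher and 4.63% called lower. Of the 18 clock gene probes 3 were called, all higher, where 8.02% of all probes were called, 3.69% higher and 4.32% lower. Restricted to genes with 2 or more arrays above background, 18.3% were called, which for 7 genes comes to between 1 and 2, so the 2 calls among the 7 clock genes above background are not set apart by their number. The arrays of the groups did not overlap for 7 of the 10 clock genes, against 53.5% of all genes, and for 6 of the 7 above background, against 65.4%. The median difference over the 10 clock genes was 0.04, against 0.0037 over all genes. These arrays read whole liver RNA, in which fewer cells of a type and less RNA per cell cannot be told apart.

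**Figure D1:**
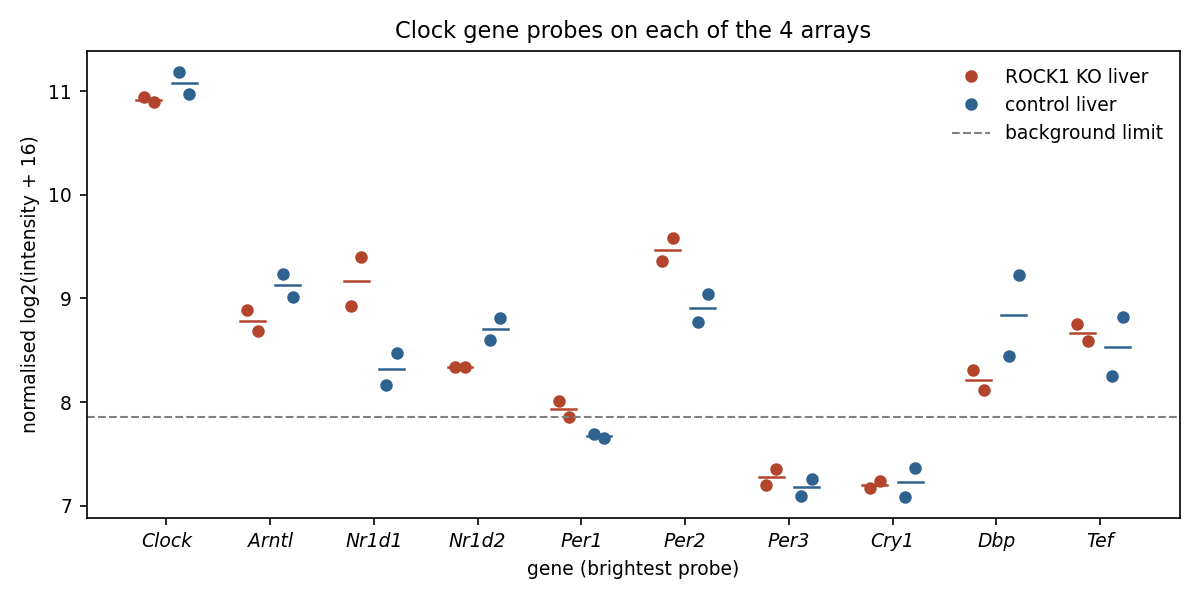
Normalised log2(intensity + 16) of the brightest probe of each clock gene on 2 ROCK1 KO arrays (left, red) and 2 control arrays (right, blue), with bars at the group means and a dashed line at the background limit of 7.86. Nr1d1 and Per2 stand higher in KO liver, Dbp, Nr1d2 and Arntl stand lower without being called, and Per3 and Cry1 lie below the limit.

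Neither activator was called. Clock, whose protein is the DNA-binding partner of BMAL1, read 10.94 and 10.90 in KO liver and 11.19 and 10.98 in control liver. The KO arrays lay just below both control arrays, by a mean of 0.16 (difference -0.16, SE 0.16, 95% confidence interval -0.51 to 0.18, limma adjusted p = 0.608). The other Clock probes were not above background on any array.

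Arntl, which encodes BMAL1, read 8.88 and 8.68 in KO liver and 9.24 and 9.02 in control liver. Both KO arrays were lower than both control arrays, and the difference was -0.34 (SE 0.14, 95% confidence interval -0.66 to -0.03, limma adjusted p = 0.189). That interval is for the single probe, and after adjustment over all probes Arntl was not called. Its difference stayed below 0 in all 15 other settings tried, from -0.45 to -0.23, and was called in none of them.

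Nr1d1, the gene of the repressor REV-ERB alpha, gave the largest difference of the set. Its raw intensities were 539 and 730 in KO liver, against 257 and 256 in control liver. After normalisation it read 8.93 and 9.40 in KO liver (9.17 ± 0.34, SD, n = 2) and 8.16 and 8.47 in control liver (8.32 ± 0.22, SD, n = 2). The lower KO array stood above the higher control array, and the KO arrays themselves differed by 0.47. The difference of 0.85 (SE 0.17, 1.80-fold higher, limma adjusted p = 0.0119) was lost as a call without control replicate 1 (0.70, adjusted p = 0.129) and with the mean of both Nr1d1 probes (0.60, adjusted p = 0.0758).

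The second, dimmer Nr1d1 probe (ILMN_2749669) was above background on 1 KO array and on no control array. It read 7.83 and 8.40 in KO liver and 7.76 and 7.77 in control liver. Here KO replicate 2 was high and KO replicate 1 stood next to the controls. Its difference was not called (limma adjusted p = 0.233) and amounts to at least 1.19-fold higher. Without KO replicate 2 this difference was 0.06, and without KO replicate 1 it was 0.63 and called (adjusted p = 0.0112).

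Nr1d2, the gene of REV-ERB beta, ran the other way from Nr1d1. It read 8.34 and 8.34 in KO liver and 8.60 and 8.81 in control liver, so that the KO arrays were almost equal and both lay below the controls. The difference of -0.37 (SE 0.13, limma adjusted p = 0.109) was not called, and over the 15 other settings it ran from -0.48 to -0.26 with no call.

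Per2, a Period gene and part of the complex that holds CLOCK and BMAL1 back, was read by 2 probes above background, and both were called. On the brightest (ILMN_2987862) the raw intensities were 730 and 828 in KO liver and 416 and 380 in control liver. Its normalised values were 9.36 and 9.58 in KO liver (9.47 ± 0.16, SD, n = 2) and 8.77 and 9.04 in control liver (8.91 ± 0.19, SD, n = 2), with no overlap. The difference was 0.56 (SE 0.15, 1.48-fold higher, limma adjusted p = 0.0465).

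On the other bright Per2 probe (ILMN_2987863) the values were 9.23 and 9.28 in KO liver and 8.40 and 8.70 in control liver. Again both KO arrays lay above both control arrays, by a difference of 0.70 (SE 0.14, 1.63-fold higher, limma adjusted p = 0.0126). The remaining Per2 probe was above background on no array. The call of the brightest probe was lost when control replicate 1 was left out (limma adjusted p = 0.268), and likewise for control replicate 2 (0.0925), KO replicate 2 (0.181) and the mean of all 3 Per2 probes (0.42, adjusted p = 0.0555). That of the other bright probe was lost only without control replicate 1 (0.55, adjusted p = 0.131) among the leave-one-out fits.

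The remaining Period and Cryptochrome genes were at or below the background limit and give little beyond that. Per1, a Period gene that also responds to hormones and light, read 8.01 and 7.86 in KO liver, where 1 array passed the limit, and 7.69 and 7.65 in control liver, where none did. Its KO arrays stood above the controls, with group means at least 1.05-fold apart, and were not called (limma adjusted p = 0.159). Per3 read 7.20 and 7.35 in KO liver and 7.09 and 7.26 in control liver. Cry1, which encodes a repressor of CLOCK and BMAL1, read 7.17 and 7.23 in KO liver and 7.09 and 7.36 in control liver. For both genes the groups overlapped, and no fold change can be given for probes that no array placed above background.

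The PAR bZIP genes differed from one another. Dbp read 8.31 and 8.11 in KO liver and 8.44 and 9.23 in control liver. Both KO arrays were lower than both controls, control replicate 2 was far above the other 3 arrays, and control replicate 1 was only slightly above KO replicate 1. Dbp was 1.54-fold lower in KO liver (difference -0.63, SE 0.21), which was not called (limma adjusted p = 0.0961). It was called with arrays scaled to their 75th percentile (-0.60, limma adjusted p = 0.00705), also after normexp background correction (-0.72, adjusted p = 0.00379). The replicate number as a block gave a call too (adjusted p = 0.00432). P-values under that scaling follow the spread of a single probe little. The output gene Noct, whose groups overlapped in the main settings, was called there as well (0.68, adjusted p = 0.00163). The Dbp difference was -1.02 without control replicate 1 and -0.23 without control replicate 2.

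Tef read 8.75 and 8.59 in KO liver and 8.25 and 8.82 in control liver, so the KO arrays lay between the controls. Its difference was 0.14 (SE 0.17, 95% confidence interval -0.25 to 0.52, limma adjusted p = 0.711), and it turned to -0.15 without control replicate 1. The other Tef probe was above background on no array.

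**Figure D2:**
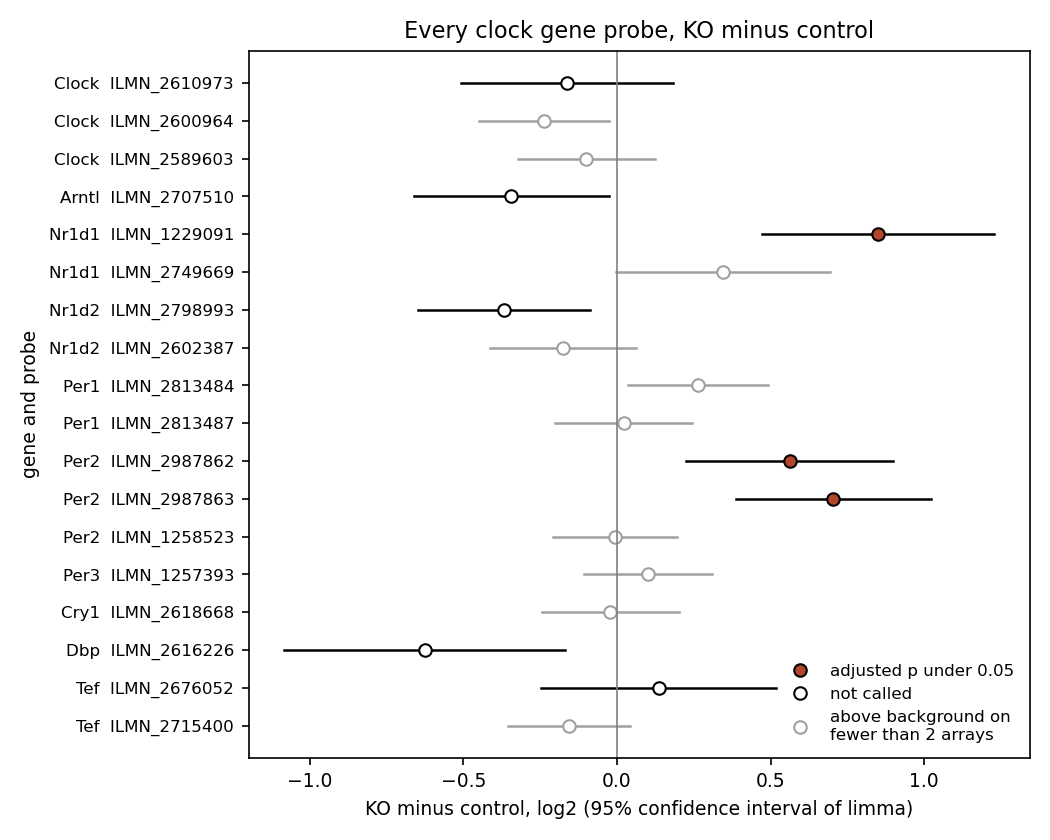
KO minus control on the log2 scale for all 18 clock gene probes, with the 95% confidence interval of limma. Filled points are called at an adjusted p under 0.05 (1 Nr1d1 probe and 2 Per2 probes), and grey marks are probes above background on fewer than 2 arrays, which lie nearer to 0 than the bright probes of Nr1d1, Per2 and Dbp.

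Beside these 10 genes stood 21 other genes of the core loops and their modifiers, of which 19 were measured and 10 were above background on at least 2 arrays. Among the 19, 1 rose, 2 fell and 16 were not called, with a median difference of 0.03, so 3 calls among 19 stand beside the 8.84% of all genes. All 3 called genes were above background, and of all genes above background 18.3% were called. Bhlhe40, which encodes the repressor DEC1 that competes for E-boxes, fell. It read 9.68 and 9.13 in KO liver and 10.33 and 10.59 in control liver (difference -1.05, SE 0.19, limma adjusted p = 0.00747), with KO replicate 2 the lowest, and its call was lost without control replicate 2 (adjusted p = 0.0895).

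Nampt, the enzyme gene of the NAD salvage pathway through which the clock drives a daily NAD rhythm, also fell. It read 8.31 and 8.25 in KO liver and 9.39 and 9.005 in control liver (difference -0.91, SE 0.15, limma adjusted p = 0.00381). The groups stood well apart, and Nampt was called in all 15 other settings, with differences from -1.11 to -0.61. Btrc, which encodes the ubiquitin ligase subunit that marks Period proteins for destruction, rose to 9.44 and 9.51 in KO liver, against 8.76 and 8.87 in control liver (difference 0.66, limma adjusted p = 0.0133). Its call was lost without control replicate 1 (adjusted p = 0.113), without control replicate 2 (0.0742) and with the mean of its 3 probes (0.20, adjusted p = 0.238), of which the other 2 were above background on no array.

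Of the 4 measured genes of the activator side, limma called 0, and 1 had an unadjusted p under 0.05, as had 3868 of all 16593 genes. Rora, the receptor that activates Arntl through the element REV-ERB alpha also binds, read 10.02 and 10.29 in KO liver and 10.16 and 10.08 in control liver. Npas2, which can stand in for CLOCK, was above background on no array, as were Arntl2 and Rorb. Among the repressors, Nfil3, which opposes DBP and TEF at D-boxes and is itself repressed by REV-ERB alpha, read 12.28 and 12.48 in KO liver and 12.10 and 11.40 in control liver. Both KO arrays were above both controls, control replicate 2 was the lowest, and the difference of 0.63 (SE 0.21) was not called (limma adjusted p = 0.0942). Nfil3 was 0.98 and called without control replicate 1 (adjusted p = 0.0317) and 0.28 without control replicate 2, and it was called in 4 of 15 other settings. Cry2 read 8.15 and 8.11 in KO liver and 7.91 and 7.88 in control liver (adjusted p = 0.218), and Ciart was above background on no array. Hlf, a further PAR bZIP gene, was likewise above background on no array. The kinase gene Gsk3b (-0.16, adjusted p = 0.562) was not called, and Fbxw11 was above background on no array.

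Of 19 liver genes known as rhythmic outputs, 17 were measured, and 2 rose, 0 fell and 15 were not called, with a median difference of 0.05. Across all genes 8.84% were called, and 18.3% of those above background. Cyp2a5, a cytochrome P450 gene whose rhythm in mouse liver depends on PAR bZIP factors, rose to 13.25 and 13.21 in KO liver, against 11.89 and 12.31 in control liver (difference 1.13, limma adjusted p = 0.00173). All 4 of its probes were called, but close paralogues may bind the same probes, so these values are uncertain. Elovl3, a fatty acid elongase gene repressed by REV-ERB alpha, read 11.63 and 11.47 in KO liver and 10.80 and 10.40 in control liver. The difference of 0.95 (SE 0.18, limma adjusted p = 0.00741) was lost as a call without control replicate 2 (0.75, adjusted p = 0.0881).

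Avpr1a, a vasopressin receptor gene, read 11.32 and 11.64 in KO liver and 11.87 and 11.86 in control liver and was not called (difference -0.39, limma adjusted p = 0.186). Noct, the gene of the rhythmic phosphatase nocturnin, gave probes that disagreed in sign. The brightest read 9.43 and 8.59 in KO liver and 7.90 and 8.90 in control liver (difference 0.61, adjusted p = 0.268), and the other read 8.28 and 7.85 in KO liver and 8.10 and 9.13 in control liver (difference -0.55, adjusted p = 0.248). Neither probe was called, and the groups overlapped on both. The brightest was called in 3 of 15 other settings, and the mean of both probes was 0.03.

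Genes that follow daily cues from outside the cell were set beside the clock. Of 7 measured genes of heat shock and cold response, 0 rose, 1 fell and 6 were not called, where 18.3% of all genes above background were called. The gene that fell was Hsp90aa1, a heat-inducible chaperone gene, at least 1.48-fold lower, since no KO array was above background (limma adjusted p = 0.00643). Leaving out control replicate 2 ended this call (adjusted p = 0.0594), as did averaging both Hsp90aa1 probes (-0.21, adjusted p = 0.187). Hspa1a (-0.57, adjusted p = 0.0804), Hspa8 (0.20, adjusted p = 0.240) and Cirbp (-0.27, adjusted p = 0.287) were not called. Hspa1a was called in 4 of 15 other settings, and Hspa8 turned to -0.15 with arrays scaled to their 75th percentile.

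Of 10 measured genes driven by glucocorticoids, feeding and fasting, 0 rose, 2 fell and 8 were not called. These 2 calls stand beside 8.84% called of all genes and 18.3% of those above background. Those that fell are both induced in fasting: Pck1, the gluconeogenic enzyme gene, with a difference of -1.14 (limma adjusted p = 0.00162), and Igfbp1, a binding protein gene of the insulin-like growth factors, at least 1.46-fold lower (adjusted p = 0.00207). Angptl4, a fasting-induced inhibitor of lipoprotein lipase, read -0.74 (adjusted p = 0.0548), and Srebf1, a gene of lipogenesis, 1.12 (adjusted p = 0.0623). Angptl4 was -1.03 and called when KO replicate 1 was left out (limma adjusted p = 0.00701) and -0.44 when KO replicate 2 was, and it was called in 6 of 15 other settings. Srebf1 was 0.53 without control replicate 1 and 1.71 and called without control replicate 2 (limma adjusted p = 0.0208), and it was called in 5 of 15 other settings. Feeding state and collection hour are not recorded in the labels, and their part in the clock gene values was not tested.

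**Figure D3:**
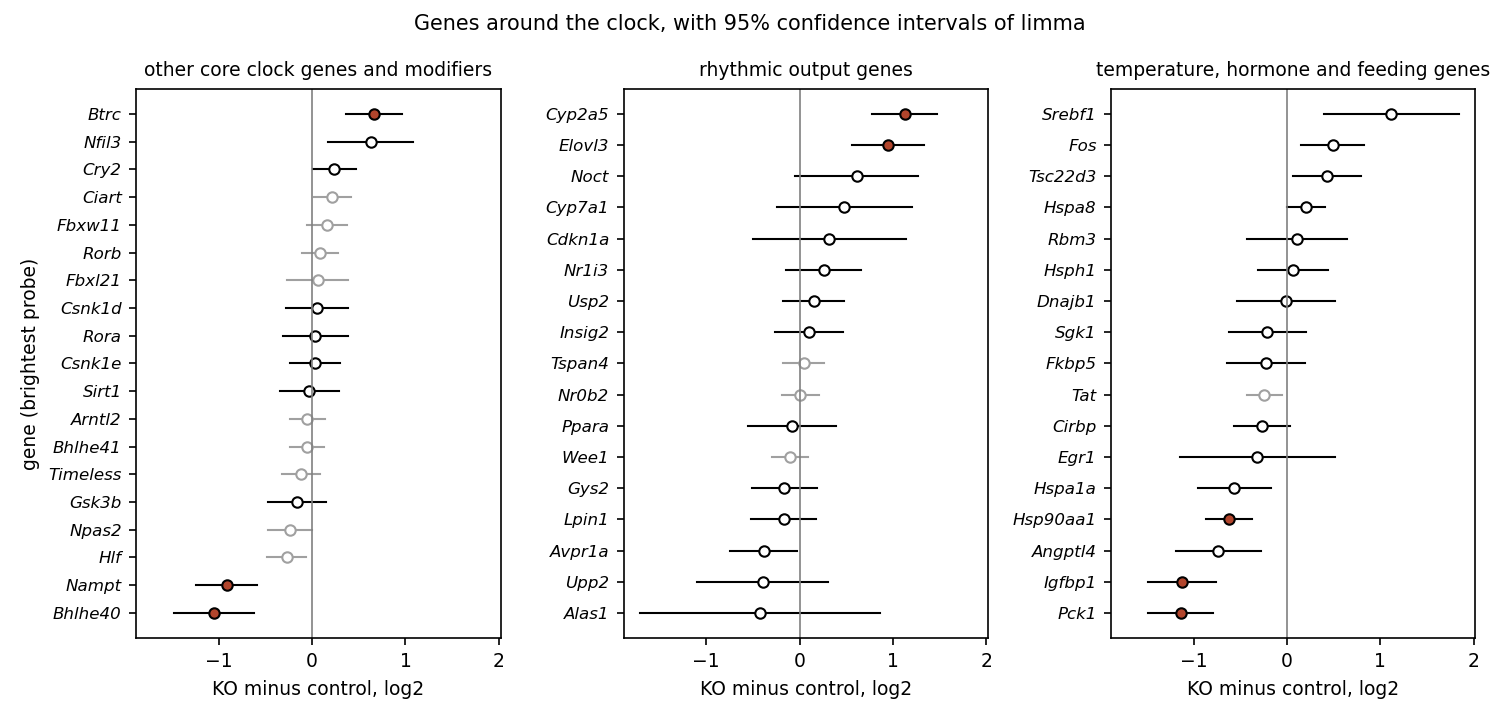
KO minus control on the log2 scale, with 95% confidence intervals of limma, for the other core clock genes (left), rhythmic liver outputs (middle) and genes of temperature, hormones and feeding (right), each read by its brightest probe. Filled points are called, with Btrc, Cyp2a5 and Elovl3 higher and Bhlhe40, Nampt, Hsp90aa1, Igfbp1 and Pck1 lower in KO liver, and grey marks are genes above background on fewer than 2 arrays.

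The spread between the 2 arrays of a group was wider for clock genes than for most genes in control liver. The median absolute difference between arrays of a group, over the 7 clock genes above background, was 0.20 in KO liver and 0.27 in control liver. Over all 6853 genes above background it was 0.14 in KO liver and 0.13 in control liver. All 7 clock genes lay above at least 70.3% of probes above background in control liver. There the 2 PAR bZIP genes led. Dbp differed by 0.79 between the control arrays, above 99.1% of probes above background, and Tef by 0.57, above 97.1%. In KO liver the same genes differed by 0.20 and 0.17, at the percentiles 63.7 and 55.8.

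Nr1d1 was the widest clock gene within KO liver, with 0.47 between its KO arrays (percentile 94.0) and 0.30 between its control arrays (percentile 85.8). Nr1d2 differed by 0.0015 between KO arrays and by 0.22 between control arrays. Clock differed by 0.04 in KO liver and 0.21 in control liver, Arntl by 0.20 and 0.22, and Per2 by 0.22 and 0.27. Other probes gave other spreads. The other bright Per2 probe differed by 0.06 in KO liver (percentile 21.4) and 0.31 in control liver (percentile 85.9). The dimmer Nr1d1 probe differed by 0.58 in KO liver and by 0.009 in control liver, where it was not above background. Whether these spreads differ between the groups was not tested.

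These differences had both signs in control liver. There Nr1d1, Nr1d2, Per2, Dbp and Tef were higher on replicate 2, while Arntl and Clock were lower on it. The same signs were seen under each of the 7 normalisations and offsets tried. Among all genes above background 46.4% were higher on control replicate 2, and for probes between the background limit and a log2 value of 9, where most of these genes lie, the median difference between the control arrays was -0.0025. In KO liver Nr1d1 and Per2 were higher and Arntl, Clock, Dbp and Tef lower on replicate 2, and Nr1d2 was almost equal. Among all genes above background 52% were higher on KO replicate 2. Replicate numbers carry no order, so this only says which genes stood high on the same array.

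**Figure D4:**
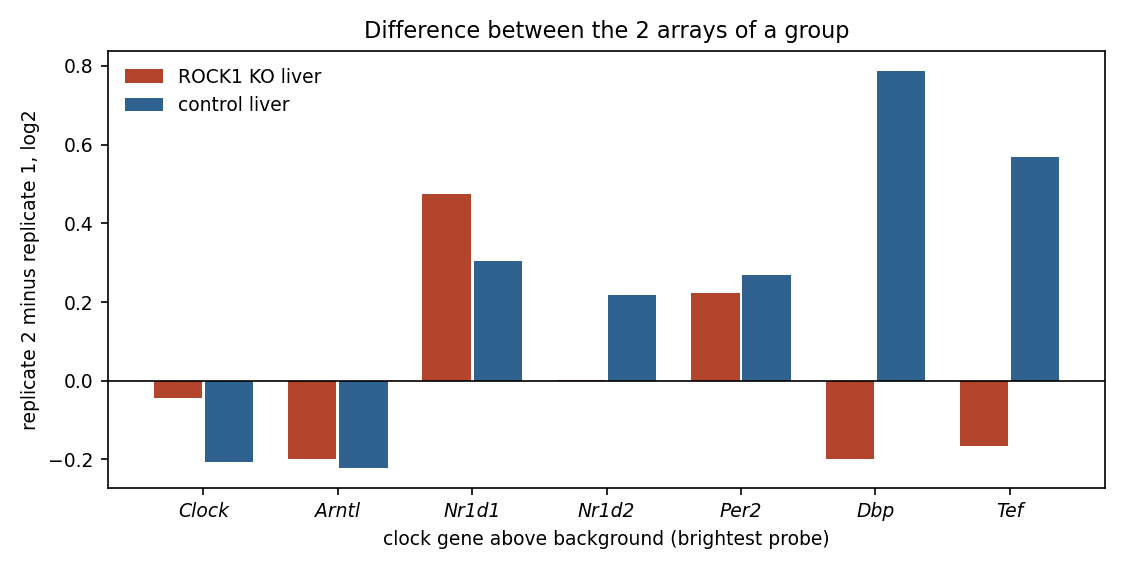
Replicate 2 minus replicate 1 on the log2 scale within ROCK1 KO liver (left bar, red) and control liver (right bar, blue) for the 7 clock genes above background. In control liver Dbp (0.79) and Tef (0.57) stand with Nr1d1, Nr1d2 and Per2 above 0, and Clock (-0.21) and Arntl (-0.22) below it. In KO liver Dbp and Tef lie below 0.

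By brightest probes, several output genes spread more between arrays than any clock gene, in control liver or in both groups. They were picked after their values were seen. In control liver Upp2 (0.85) and Cyp7a1 (0.88) differed only a little more than Dbp (0.79). Alas1, the rate-limiting enzyme gene of haem synthesis and an output of PAR bZIP factors, read 12.77 and 11.95 in KO liver and 11.49 and 14.07 in control liver. Its control arrays thus enclosed both KO arrays, and it was not called (-0.42, limma adjusted p = 0.736). Without control replicate 1 it was called lower (-1.71, adjusted p = 0.0194), and without control replicate 2 it read 0.87.

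Upp2, a uridine phosphorylase gene with a strong liver rhythm, read 10.15 and 9.09 in KO liver and 9.60 and 10.44 in control liver. Cyp7a1, the rate-limiting enzyme gene of bile acid synthesis, read 11.83 and 10.74 in KO liver and 10.37 and 11.25 in control liver. Like Noct and Alas1, both were high on control replicate 2 and on KO replicate 1. Cdkn1a, a cell cycle inhibitor gene that REV-ERB alpha represses, read 9.52 and 9.58 in KO liver and 10.05 and 8.40 in control liver and so was low on control replicate 2 alone. The median difference between arrays over output genes above background was 0.43 in KO liver and 0.40 in control liver.

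**Figure D5:**
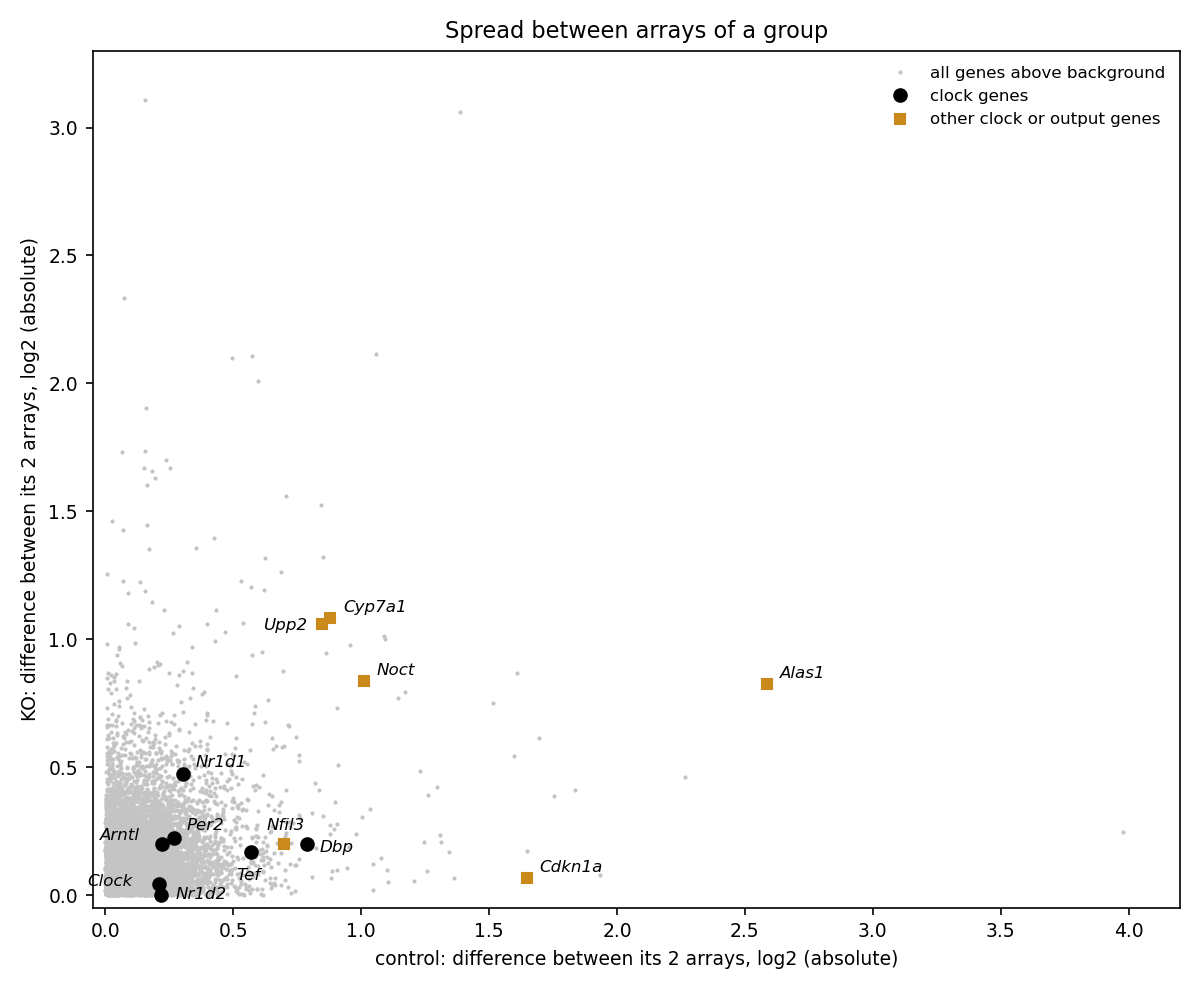
Absolute log2 difference between the 2 ROCK1 KO arrays (vertical axis) against that between the 2 control arrays (horizontal axis) for 6853 genes above background (grey), the 7 clock genes (black) and 6 other clock or output genes picked after their values were seen (ochre squares). Dbp and Tef are spread along the control axis, Nr1d1 lies higher on the KO axis, and Alas1 lies far to the right at 2.59.

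Among the 10 clock genes Nr1d1 had the widest range over the 4 arrays (1.24), and genes with the most similar pattern were sought among 6852 others above background, by the root mean square difference of log2 values centred on each gene's own mean over the 4 arrays. The nearest were Pold2, a DNA polymerase delta subunit gene (0.050), Cdk2ap2 (0.053), Nabp2 (0.082), Epn1 (0.084) and Gchfr (0.087). Pold2 read 9.26 and 9.65 in KO liver and 8.55 and 8.78 in control liver, which shows the shared form, with both KO arrays high and KO replicate 2 the highest. Of the clock genes Per2 was nearest to Nr1d1 (0.17) and Dbp farthest (0.79). With 4 arrays a likeness of this kind is a description only.

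Cell type markers were measured on the same arrays, where 8.84% of all genes were called and 18.3% of those above background. Of the 8 hepatocyte markers measured, 1 fell and 7 were not called, and 6 were above background on at least 2 arrays. The marker that fell was Serpina1a, a protease inhibitor gene of hepatocytes with close paralogues that may share its probes. It read 12.92 and 12.95 in KO liver and 14.65 and 14.86 in control liver (difference -1.82, 3.53-fold lower, limma adjusted p = 1.38e-05), and its second probe was called lower too (-1.63, adjusted p = 0.000206). Hnf4a (-0.62, adjusted p = 0.0540) and Cps1 (0.52, adjusted p = 0.110) were not called, and they differed in sign. The brightest probes of Ahsg, Ttr and Apoa1 read 15.68 to 15.97 on all 4 arrays, near the scanner's ceiling, where differences cannot be read. A dimmer Ahsg probe was called lower (-0.97, adjusted p = 0.00200). The Fgb probe was above background on no array and the Alb probe on 1 control array only. The summed linear level of the hepatocyte markers, by brightest probes, was 221860 and 216330 in KO liver and 230470 and 244630 in control liver. Most of each sum came from the Ahsg, Ttr and Apoa1 probes near the scanner's ceiling, so differences between these sums are uncertain. Of 6 Kupffer cell markers 0 rose, 2 fell (Adgre1, -0.84, and Clec4f, -0.63) and 4 were not called. The groups overlapped for 3 of the 6, among them Vsig4, the brightest (0.002, limma adjusted p = 0.996), and the other 3 were lower. Dimmer probes of Adgre1 (-0.30, adjusted p = 0.116) and Clec4f (-0.12, adjusted p = 0.530) were not called. The summed level of the Kupffer markers was 2831 and 2934 in KO liver and 3874 and 3373 in control liver. Of 7 endothelial markers 1 fell (Clec4g, -0.94) and 6 were not called, with sums of 7011 and 6404 in KO liver and 12110 and 10742 in control liver. Clec4g alone made up most of each endothelial sum, and the groups overlapped for Stab2 (-0.13) and Pecam1 (-0.06).

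Of 6 stellate cell markers limma called 0 by their brightest probes. Of these 1, Dcn, had an unadjusted p under 0.05 (-0.42, adjusted p = 0.107), as had 3868 of all 16593 genes. A dimmer Dcn probe, above background on all 4 arrays, was called lower (-1.13, 2.18-fold lower, adjusted p = 0.00151). The stellate sums were 11128 and 10563 in KO liver and 13502 and 11688 in control liver. Of 3 cholangiocyte markers 1 rose (Sox9, 0.61), with Krt19 and Krt7 above background on no array and sums of 665 and 728 in KO liver and 554 and 562 in control liver. Of 5 lymphocyte markers 1 was called higher (Ms4a1, above background on 1 KO array), of 4 neutrophil markers 1 lower (S100a9, above background on no array) and of 3 red cell markers 1 lower (Hbb-bt, at least 2.67-fold lower). The lymphocyte sums were 890 and 848 in KO liver and 886 and 843 in control liver. The neutrophil sums were 646 and 661 in KO liver and 856 and 717 in control liver. No measured lymphocyte or neutrophil marker was above background on 2 or more arrays, so both sums are largely background. The red cell sums were 41403 and 20797 in KO liver and 36018 and 26247 in control liver, and so overlapped. Both KO sums lay below both control sums for hepatocyte, Kupffer, endothelial, stellate and neutrophil markers, and above them for cholangiocyte markers. With 2 arrays per group such separation is common. Arrays of the groups did not overlap for 53.5% of all genes and 65.4% of those above background. Single genes set some of the orders of the sums. The sums of the groups would overlap for hepatocytes without Serpina1a, for stellate cells without Dcn and for cholangiocytes without Sox9. The part of these cells in the clock gene values was not tested.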

How the data were processed

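Total RNA of ROCK1 KO liver (2 arrays) and control liver (2 arrays) was stained with Cy3-streptavidin on Illumina bead arrays of 1 colour, as the labels state. The deposited intensities are linear bead summaries per probe, and per the file headers they have no detection p-values. The lowest intensity of each array was 79.2 or more, which shows that background was left in. Values on a log2 scale, also deposited by the authors, rank the probes of each array in the same order (rank correlation 1) and have a median of 7.63 on each array. Their scaling and scanner software are not given in the sources used here.

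Intensities were quantile normalised, and log2(intensity + 16) was tested with limma 3.58.1 in R 4.3.3 (lmFit, eBayes with intensity trend, two-sided, Benjamini-Hochberg adjustment over all 25697 probes). No detection filter was applied. The fit was tested on simulated data. The background limit, 7.86, lies 3 SD above the mode of all values and was chosen after seeing the data. A fold is a bound where a group had no array above it, the dim arrays being set to at least the lowest value above the limit. Such a bound is for the group means as measured and leaves out the spread between arrays. Gene symbols were those of the platform annotation (1719 probes lacked one). The members and gene lists were chosen with earlier results of these data known. Named were all members, every gene of a list called by its brightest probe, up to 4 genes with the smallest p in each list, Rock1, and the 5 genes nearest in pattern. Other markers named were chosen after their values were seen. No label pairs the arrays by replicate number. Their deviations from the group means correlated at -0.057 over all probes, most of them dim, which does not settle whether arrays were paired. Alternatives covered the offset, background correction, normalisation, the authors' values, a dim-probe filter, the probe per gene, the variance model, a replicate block and each array left out. Arrays were left out after normalisation. Figures were drawn with matplotlib 3.10.9.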

Additional observations from a re-analysis of the deposited data

How the results depend on the processing

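The main settings called 2 of the 10 clock genes, 3 of the other clock genes, 2 output genes and 2060 probes. With each array left out in turn, these counts ran from 1 to 2, from 1 to 3, from 1 to 4 and from 789 to 1727. With probes of a gene averaged, limma called 0 clock genes and 1141 genes, and dim probes enter these means. In that fit 5 clock genes had an unadjusted p under 0.05. In the main settings 6 of the 10 clock genes and 3868 of all 16593 genes did. With normexp and 75th percentile scaling, 4 output genes were called. P-values under 75th percentile scaling follow the spread of a single probe little. Srebf1 had adjusted p = 4.62e-09 there by limma. Its arrays differed by 0.80 in KO liver and 1.17 in control liver in the main settings. The replicate block called 3 clock genes and 2920 probes, with Dbp added, and the numbers pair no arrays by any label. It fits a further coefficient on 4 arrays, which leaves less to estimate the spread from. In that fit Nr1d1 and Per2 kept their calls. The difference of Cry1, at background on every array, was 0.048 with 75th percentile scaling and ran from -0.16 to 0.12 with an array left out. That of Tef was -0.0096 with the mean of its probes and ran from -0.15 to 0.42 with an array left out. Causes of these shifts beyond the settings themselves were not tested. Nr1d1 was called in 13 of 15 other settings and Per2 in 11 of 15, with no change of sign for either. The median absolute difference between arrays of a group, over all 10 clock genes with both groups pooled, was 0.20. It was 0.15 to 0.26 under the other offsets, normalisations and the mean of probes. This set includes the clock genes not above background, unlike the medians by group given earlier. Signal over background limits Per1, Per3 and Cry1, which had 1, 0 and 0 arrays above the limit.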
